A study of Mus musculus with 24 samples.

Results

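GABA signalling in the newborn mouse brain was followed through 8 genes: Gad1, Gad2, Slc32a1, Gabra2, Gabra3, Gabra5, Slc12a2 and Slc12a5. They were taken by gene symbol from the 48709 genes of the count table, and all 8 had at least 1 count in every cortex library. These genes were chosen on the measured nPM difference in cortex, so that difference is given below for them as a description, and nothing is supported with it. RNA was sequenced from the cerebral cortex and the whole blood of neonates whose dams breathed re-aerosolized nPM, nano-sized particles collected beside a Los Angeles freeway, or filtered air (control). Exposure lasted 5 h a day, 3 days a week, from gestational day 2 to birth. There were 12 libraries per tissue, with 3 neonates of each sex per exposure group. The labels give the strain as C57BL/6J and the age as 3 to 5 days, where the study's methods give C57BL/6NJ and day 5. The labelled concentration is 300 mg/m3 and that in the methods 300 μg/m3. Cortex and blood libraries are not tied to animals in the labels.

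GABA is made from glutamate by the glutamate decarboxylases GAD67 and GAD65 and is loaded into synaptic vesicles by the transporter VGAT. It acts mainly on GABA-A receptors, pentameric chloride channels whose alpha subunits set much of their kinetics and location. In the newborn brain neurons tend to hold high chloride, because the importer NKCC1 is active while the exporter KCC2 is still rising, and GABA can then depolarize rather than inhibit them.

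Cortex libraries held 22301409 to 33804371 counts on genes and blood libraries 13595647 to 21895536. Levels are given as CPM, the count scaled to a library total of 1e6. The floor set by 3 counts was 0.0887 to 0.135 CPM in a cortex library and covers counting error only. The RNA integrity number (RIN) lay between 9.4 and 9.9 in the cortex samples and between 7.5 and 9.3 in the blood samples. The marker genes of dissected cortex were present, with summed CPM of 942 to 1202 for 10 glutamatergic neuron markers and 5937 to 6934 for 7 neuronal markers. Markers of the striatum, which lies under the cortex, were detected in every cortex library at summed CPM of 179 to 611. One control library, female control replicate 1, had the highest striatal sum and the lowest RIN among females.

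The first 4 genes describe the GABA-producing side and the receptor subunit that varied with it. Their promoters are printed because the levels of these 4 genes correlated positively over the 12 cortex libraries (pairwise Pearson r from 0.59 for Slc32a1 and Gabra2 to 0.92 for Gad1 and Gad2, and from 0.18 to 0.69 in the 6 nPM libraries alone). The RefSeq promoter windows (build GRCm38.p6, 250 bases before to 50 after the start) are chr2:70561879-70562178 on the plus strand for Gad1, chr2:22622077-22622376 on the plus strand for Gad2, chr2:158610508-158610807 on the plus strand for Slc32a1 and chr5:71095800-71096099 on the minus strand for Gabra2. The Gad1 window lies inside the counted gene (chr2:70553072-70602014) and not at the first base of that span. Capitals mark matches to the searched motifs TATAAA and TGACG on either strand.
Gad1: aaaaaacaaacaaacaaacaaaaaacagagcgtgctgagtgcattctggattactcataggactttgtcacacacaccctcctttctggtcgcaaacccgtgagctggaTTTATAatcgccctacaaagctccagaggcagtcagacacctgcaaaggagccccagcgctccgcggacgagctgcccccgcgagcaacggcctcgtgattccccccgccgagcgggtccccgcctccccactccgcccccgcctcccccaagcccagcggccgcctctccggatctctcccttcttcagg
Gad2: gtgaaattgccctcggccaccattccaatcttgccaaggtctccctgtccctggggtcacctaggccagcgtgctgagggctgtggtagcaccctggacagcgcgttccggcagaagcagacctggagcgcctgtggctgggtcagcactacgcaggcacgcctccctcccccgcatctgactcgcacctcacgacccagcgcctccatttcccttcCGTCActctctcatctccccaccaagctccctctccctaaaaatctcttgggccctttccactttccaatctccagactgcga
Slc32a1: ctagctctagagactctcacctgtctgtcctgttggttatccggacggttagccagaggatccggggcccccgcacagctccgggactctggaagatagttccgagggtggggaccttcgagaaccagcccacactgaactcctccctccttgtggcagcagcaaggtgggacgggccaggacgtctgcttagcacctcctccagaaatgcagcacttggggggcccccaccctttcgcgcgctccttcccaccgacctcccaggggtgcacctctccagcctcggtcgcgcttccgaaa
Gabra2: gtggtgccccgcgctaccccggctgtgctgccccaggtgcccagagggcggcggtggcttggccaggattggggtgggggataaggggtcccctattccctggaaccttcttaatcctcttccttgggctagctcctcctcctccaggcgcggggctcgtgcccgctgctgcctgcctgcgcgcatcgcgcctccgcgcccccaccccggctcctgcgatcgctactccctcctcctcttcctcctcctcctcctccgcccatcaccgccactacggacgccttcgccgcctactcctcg

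These windows were rich in G and C, at 60% in Gad1, 61.3% in Gad2, 63.3% in Slc32a1 and 70% in Gabra2, against a median of 52.7% over 32851 promoters. They held 14 to 25 CG pairs, where the median promoter held 7. TATAAA (the TATA box letters) was found in Gad1 and in 13.6% of all promoters, and TGACG in Gad2 and in 20.8%. The homeodomain core TAATTA (5.29% of all promoters) and the cyclic AMP response element TGACGTCA (1.79%), which contains TGACG, were found in none of the 4 windows. Promoters were matched for 7 of the 8 genes. Gabra3, which is X-linked, differed from the others in sequence. Its 2 annotated windows held no CG pair, had 43% and 39.3% G and C, and each held 1 TATAAA match.

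Gad1 (chr2:70553072-70602014, mm10) encodes GAD67, the decarboxylase that makes most of the brain's GABA. In cortex its level, in TMM-scaled CPM, was 128, 91.0 and 88.0 in the female controls and 82.9, 83.0 and 102 in the male controls. After nPM it was 115, 108 and 122 in females and 112, 130 and 104 in males. The ranges overlapped through female control replicate 1. All 6 nPM libraries lay above the control median of 89.5. The fitted difference, nPM minus control, was 0.26 on the log2 scale (SE 0.06, n = 6 per exposure), a fold of 1.20. Its copy Gad1-ps, with which it could share reads, had 1 to 13 counts per library.

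Gad2 (chr2:22622205-22693874) encodes GAD65, the decarboxylase of nerve terminals. Its level ran from 65.4 to 113 CPM in controls (median 78.5) and from 88.6 to 102 CPM after nPM (median 94.2). The nPM libraries lay inside the control range, and the highest value was again female control replicate 1. The log2 difference was 0.19 (SE 0.08). Slc32a1 (chr2:158610767-158615748) encodes VGAT. It ran from 23 to 35.5 CPM in controls (median 26.6) and from 25.4 to 33.7 CPM after nPM (median 29.6), with a log2 difference of 0.09 (SE 0.08). Its nPM values too lay inside the control range.

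Gabra2 (chr5:70957597-71095849) encodes the alpha 2 subunit, common at synapses of the immature brain. The female controls had 163, 144 and 145 CPM and the male controls 152, 139 and 162 CPM. The nPM females had 171, 170 and 171 CPM and the nPM males 163, 168 and 166 CPM. Of the 6 nPM libraries, 5 lay above every control, and the remaining one lay just below the highest control. The log2 difference was 0.15 (SE 0.04). The SD over libraries was 10.1 CPM in controls and 3.27 CPM after nPM.

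Gabra3 (chrX:72432681-72656848) encodes the alpha 3 subunit and Gabra5 (chr7:57407672-57510059) the alpha 5 subunit, which is found largely outside synapses. Gabra3 ran from 89.2 to 107 CPM in controls (median 100.4) and from 97.8 to 108 CPM after nPM (median 103), with a log2 difference of 0.06 (SE 0.04). Gabra5 ran from 143 to 172 CPM in controls (median 156) and from 153 to 171 CPM after nPM (median 161), also with a log2 difference of 0.06 (SE 0.05). Both genes overlapped between exposures over most of their range. The span of Gabra5 is overlapped on the opposite strand. Because the strandedness of the counting is not stated, the level of Gabra5 is uncertain to that extent.

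Slc12a2 encodes the chloride importer NKCC1 and Slc12a5 (chr2:164960802-164999731) the exporter KCC2. Slc12a2 ran from 61.1 to 75.9 CPM in controls (median 68.8) and from 64.1 to 70.0 CPM after nPM (median 65.8), with a log2 difference of -0.05 (SE 0.05). Slc12a5 ran from 210 to 262 CPM in controls (median 238) and from 206 to 245 CPM after nPM (median 226), with a log2 difference of -0.05 (SE 0.06). For both carriers the exposures overlapped. The log2 ratio of Slc12a5 to Slc12a2 was 1.57 ± 0.20 (SD, n = 6) in controls and 1.58 ± 0.09 (SD, n = 6) after nPM.

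**Figure D1:**
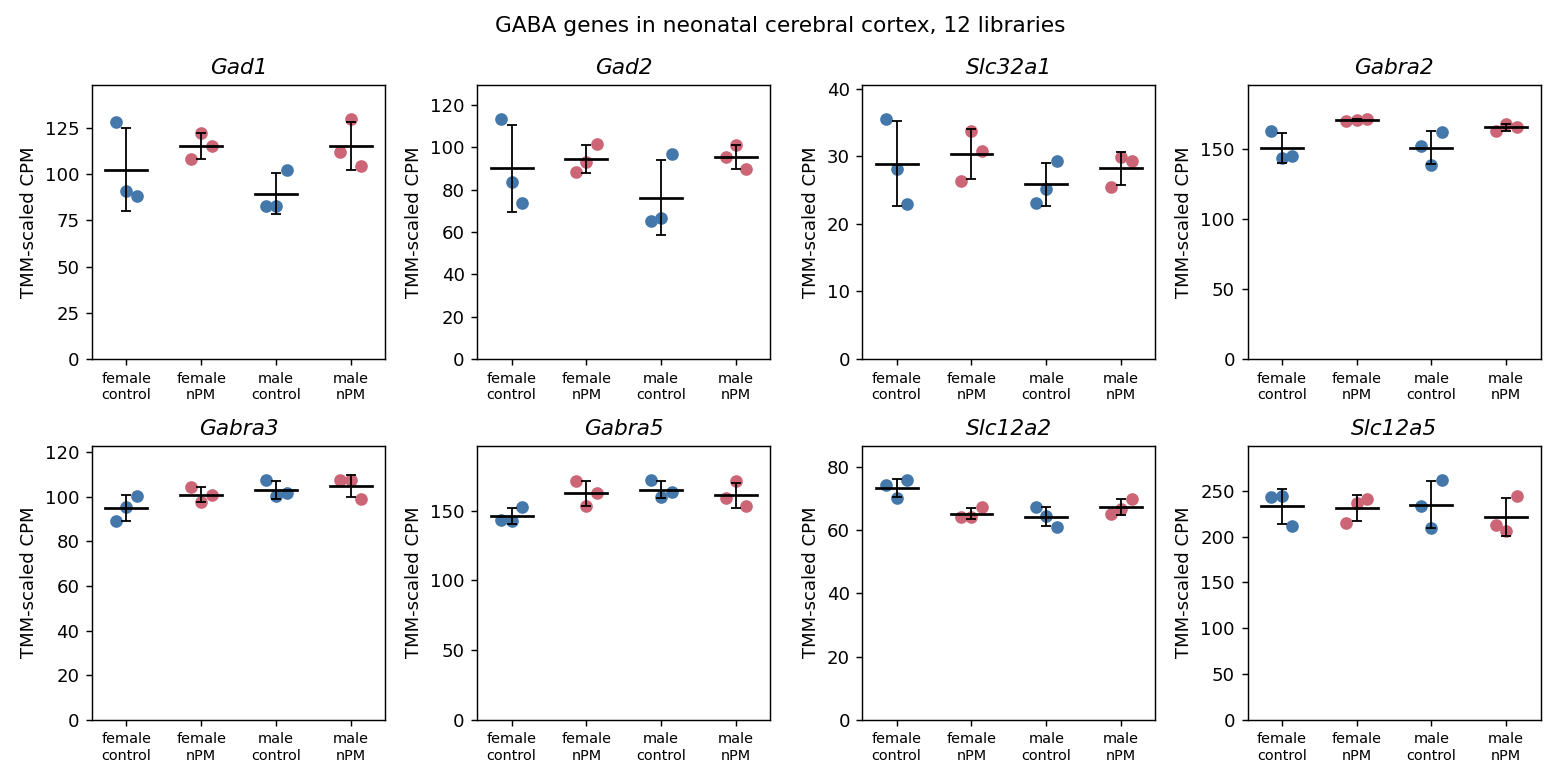
Level of each gene in cortex (TMM-scaled CPM, axis from 0) by sex and exposure, with 1 point per neonate, a bar at the mean of 3 and whiskers of 1 SD. Gabra2 after nPM sits between 163 and 171 CPM, and Slc12a2 after nPM between 64.1 and 70.0 CPM.

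Of the 8 genes, 6 were fitted higher and 2 lower after nPM, with a median log2 difference of 0.08, where the median over all 20857 genes tested was -0.00. Gad1 and Gabra2, 2 of the 8, passed the study's cutoff of an unadjusted p of 0.005 in edgeR's quasi-likelihood test, which 0.614% of all genes tested passed. The genes were selected on this contrast, so nothing is read from that count. Within lane 2 (8 libraries) the difference of means was 0.29 for Gad1 and 0.17 for Gabra2, and within lane 3 (4 libraries) 0.25 and 0.14. It was 0.27 and 0.12 for Gad2 and 0.02 and 0.28 for Slc32a1 in lanes 2 and 3. The sign turned between the lanes for Gabra3 (0.10 and -0.04), Gabra5 (0.11 and -0.04) and Slc12a5 (-0.09 and 0.03), and Slc12a2 had -0.07 and -0.02.

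**Figure D2:**
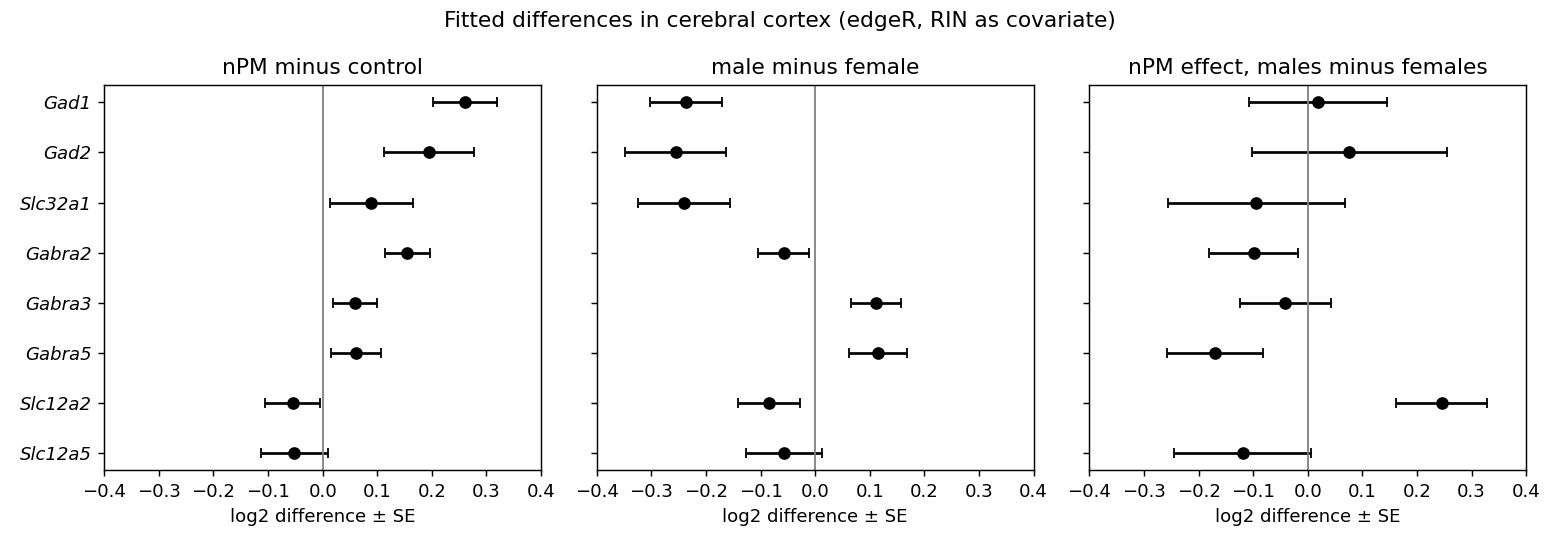
Fitted log2 differences in cortex with their SE (whiskers) for nPM minus control, male minus female, and the nPM effect in males minus that in females. Gad1 and Gabra2 lie at 0.26 and 0.15 in the left panel, and Slc12a2 lies at 0.25 in the right panel.

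The other genes of the pathway were taken from a list of 53, of which 48 had a count in every cortex library. None of the 48 passed the unadjusted cutoff of 0.005 for nPM in edgeR, limma voom or DESeq2. At an unadjusted p under 0.05 edgeR found 4 of the 48, a level that 5.67% of all genes reached in edgeR. Limma voom found 4 and DESeq2 5, for which the share of all genes is not given here. By edgeR 1 of the 4 was higher and 3 were lower after nPM. The median log2 difference of the 48 was -0.04. With 1 library left out the count at 0.005 ran from 0 to 2. Slc12a4 passed without male control replicate 1 (log2 difference -0.19), Gabrg1 without male control replicate 3 (0.16), and Clcn2 and Shisa7 without male nPM replicate 3 (-0.20 and -0.21).

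Gabrg1, which encodes the gamma 1 subunit of GABA-A receptors, had 39.5 ± 4.22 CPM in controls (SD, n = 6) and 44.0 ± 3.05 CPM in nPM libraries (SD, n = 6), with a log2 difference of 0.15 (SE 0.05, edgeR adjusted p = 0.844). Slc6a13, which encodes the GABA transporter GAT2, had 6.73 ± 1.21 and 7.44 ± 1.12 CPM, a log2 difference of 0.13 (SE 0.13, edgeR adjusted p = 0.906). Kctd16, an auxiliary subunit of GABA-B receptors, had 32.8 ± 1.79 CPM in controls and 29.0 ± 2.95 CPM after nPM, a log2 difference of -0.17 (SE 0.07, edgeR adjusted p = 0.856). Slc12a4, which encodes the potassium-chloride cotransporter KCC1, had 21.7 ± 1.66 and 19.5 ± 1.28 CPM, a log2 difference of -0.16 (SE 0.06, edgeR adjusted p = 0.844). The remaining gene of the 4 was Clcn2, a chloride channel, with a log2 difference of -0.15 (SE 0.06). It was named after its value was seen. Among the 11 tested GABA-A subunits outside the 8 genes, 5 were fitted higher and 6 lower, and among 16 chloride carriers and their regulators 4 higher and 12 lower. All 20857 genes tested split into 10197 higher and 10660 lower.

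The sexes were compared in the same fit, with exposure and RIN as the other terms. Gad1 was fitted 0.24 lower on the log2 scale in males (SE 0.07, unadjusted p = 0.00263, edgeR adjusted p = 0.797), Gad2 0.26 lower (unadjusted p = 0.0146) and Slc32a1 0.24 lower (unadjusted p = 0.0121, both edgeR adjusted p = 0.797). Gabra3 and Gabra5 were each fitted 0.11 higher in males (unadjusted p = 0.0297 and 0.0476, both edgeR adjusted p = 0.797). Gad1 was the 1 of 8 past the unadjusted cutoff of 0.005, which 0.518% of all genes passed, and none of the 8 passed an adjusted p of 0.05, which 0.0336% did. When genes counted in any library were kept in the fit, 2 of the 8 passed an adjusted p of 0.05 (smallest edgeR adjusted p = 0.0102, Gad2). The Gad2 difference was then -0.25, where the main fit gave -0.26, so the p moved with the filter and the size hardly did. The share of all genes that passed in that fit is not given here, so nothing is read from the 2. In the main fit 5 of the 8 lay at an unadjusted p under 0.05, where 6.09% of all genes did. Without the RIN term 0 of 8 did, and the share of all genes in that fit is not given here.

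This sex difference changed with the RIN term, with single libraries and between lanes. RIN averaged 9.67 in females and 9.52 in males. Without the RIN term Gad1 differed by -0.10 and no gene of the 8 passed 0.005. Without female control replicate 1 it differed by -0.13, again short of 0.005. Gad1 also missed 0.005 without male control replicate 1 or 2 and without male nPM replicate 1 or 3, at -0.24 to -0.20. Gad2 joined it without male control replicate 3 or female nPM replicate 3. The unfitted Gad1 levels were 109 ± 16.5 CPM in females and 102 ± 17.9 CPM in males (SD, n = 6 each, two-sided exact permutation p = 0.5). Gabra3 was 98.0 ± 5.28 CPM in females and 104 ± 4.0 CPM in males, where 3 males lay above every female. Its two-sided exact permutation p of 0.0498 was the smallest of the 8 genes and was not adjusted. Within lanes 2 and 3 the male minus female difference of means was -0.14 and -0.01 for Gad1, -0.26 and 0.17 for Gad2, -0.22 and 0.08 for Slc32a1, 0.12 and 0.02 for Gabra3 and 0.10 and 0.05 for Gabra5. The sign thus turned in lane 3 for Gad2 and Slc32a1. Male and female values overlapped for all 8 genes.

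The nPM effect in males was compared with that in females by an interaction term. None of the 8 genes passed an unadjusted p of 0.005, which 1.35% of all genes did in edgeR. Slc12a2 came nearest, with an interaction of 0.25 on the log2 scale (SE 0.08, 95% interval 0.07 to 0.42, unadjusted p = 0.0103, edgeR adjusted p = 0.403). It was the 1 of 8 under an unadjusted p of 0.05, which 9.68% of all genes were in edgeR. Limma voom and DESeq2 also gave 0 at 0.005 and 1 at 0.05, with their shares of all genes not given here.

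In the female controls Slc12a2 had 74.2, 70.2 and 75.9 CPM, and in the nPM females 67.3, 64.2 and 64.1 CPM. These ranges did not overlap, and the 3 female controls were the 3 highest of the 12 cortex libraries. The share of all genes that separate in this way is not given here, so nothing is read from it. The male controls had 67.3, 64.5 and 61.1 CPM and the nPM males 65.0, 66.6 and 70.0 CPM, which overlapped. The fits of 1 sex gave log2 differences of -0.18 (SE 0.05, edgeR adjusted p = 0.129) in females and 0.09 (SE 0.07, edgeR adjusted p = 0.962) in males. The interaction kept a value of 0.21 to 0.29 with each library left out.

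Gabra5 had 143, 143 and 152 CPM in the female controls and 172, 160 and 163 CPM in the male controls. After nPM the sexes lay at 163, 171 and 153 CPM and at 159, 171 and 153 CPM. Its interaction was -0.17 (SE 0.09, unadjusted p = 0.0723, edgeR adjusted p = 0.562). Gad1 and Gad2 gave interactions of 0.02 (SE 0.13) and 0.08 (SE 0.18). Of the 48 other GABA genes none passed 0.005 in this contrast, which 1.35% of all genes did. Under 0.05 lay 4 of the 48, where 9.68% of all genes did, so nothing is read from that count. Among the 4 were Gabarap (-0.28), Wnk1, a kinase that regulates chloride carriers (0.38), and Shisa7 (0.38). These were named after their values were seen, with unadjusted edgeR p from 0.00733 to 0.0331.

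Per kilobase of gene model, the mean cortex level was 53.3 CPM per kb for Gabra5, 30.9 for Slc12a5, 25.7 for Gabra3, 20.9 for Gabra2, 15.2 for Gad2, 13.8 for Gad1, 10.4 for Slc12a2 and 10.1 for Slc32a1. The ranges over libraries did not overlap between neighbours among the first 4 genes, and from Gabra2 down each range overlapped the next. The first place of Gabra5 is subject to the opposite-strand overlap described above. The exporter Slc12a5 was above the importer Slc12a2 in every cortex library, by 1.29 to 1.91 on the log2 scale of the CPM per kb ratio.

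Of 2 ratios compared between the sexes on the 12 cortex libraries, each with a two-sided exact permutation test, neither passed, with 0.729 as the adjusted p of both. The log2 ratio of Slc12a5 to Slc12a2 was 1.55 ± 0.15 in females and 1.60 ± 0.16 in males (SD, n = 6 each, exact permutation p = 0.623). That of Gad1 to Gad2 was -0.14 ± 0.10 and -0.12 ± 0.11 (exact permutation p = 0.729).

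The levels of the genes were also compared with each other across the 12 cortex libraries. The correlations are descriptions of log2 CPM from the same libraries. Gad1 correlated with Gad2 at a Pearson r of 0.92, with Slc32a1 at 0.80 and with Gabra2 at 0.84. In the 6 control libraries these r were 0.96, 0.93 and 0.78, and in the 6 nPM libraries 0.69, 0.51 and 0.36. Gad2 in the nPM libraries correlated with Slc32a1 at 0.28 and with Gabra2 at 0.18. Gabra3 correlated with Gabra5 at 0.86, and with Gad1 at -0.16. Slc12a2 and Slc12a5 showed -0.05 with each other.

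**Figure D3:**
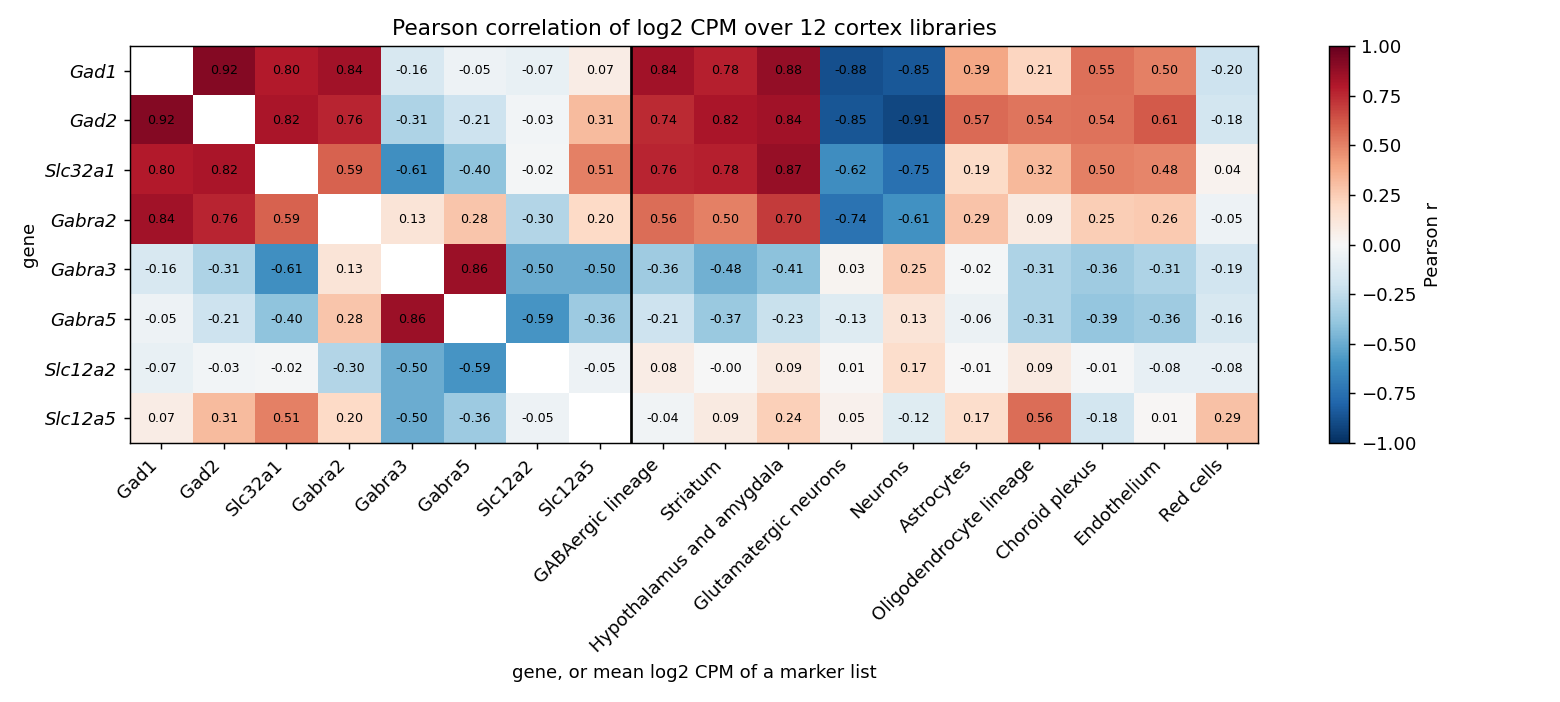
Pearson r of log2 CPM over 12 cortex libraries between each gene (rows) and the other genes or the mean level of a marker list (columns). A list mean covers the genes counted in every cortex library, which are 7 of 17 for the hypothalamus and amygdala. Gad1, Gad2, Slc32a1 and Gabra2 share positive values with the GABAergic lineage, striatum and hypothalamus and amygdala lists and negative values with the glutamatergic list. They also have smaller positive values with the astrocyte, oligodendrocyte lineage, choroid plexus and endothelium lists.

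The genes whose levels were most like each of the 8, over the 12 cortex libraries and 12015 genes with a mean of at least 5 CPM, were named by Pearson r. For Gad1 they were Ndst4 (0.93), Zcchc12 and Alcam, and for Gad2 Dock10 (0.95), Gpr83 and Ndst4. Slc32a1 was most like Mus81 (0.90), Adcy5 and Mitf, and Gabra2 most like Angptl6 (0.90), Spock3 and Hpcal1. Gabra3 was most like Klhl9 (0.95), Zfp707 and Cmpk1, and Gabra5 most like Msmo1 (0.97), Psma4 and Bzw1. Slc12a2 was most like Ccnt2 (0.94), Cttnbp2 and Zcchc7, and Slc12a5 most like Cnnm2 (0.93), Arid5a and Agap2. These r were picked as the highest of 12015 over 12 libraries of both exposures. They were not tested, so no shared regulation is read from them.

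Markers of the cells and regions that produce GABA varied with the Gad genes, and markers of several other cell types did so less closely. Gad1 correlated with the mean level of 18 GABAergic lineage markers at 0.84, of 12 striatal markers at 0.78 and of 10 glutamatergic markers at -0.88. For the hypothalamus and amygdala the mean covered only the 7 of 17 markers counted in every cortex library, and r was 0.88. With 7 markers of neurons of any kind Gad1 correlated at -0.85 and Gad2 at -0.91. Gad2 correlated with the GABAergic lineage at 0.74, endothelium at 0.61, astrocytes at 0.57, choroid plexus at 0.54 and the oligodendrocyte lineage at 0.54. For Gad1 the last 4 were 0.50, 0.39, 0.55 and 0.21. Red cell markers gave -0.20 with Gad1 and -0.18 with Gad2. Fewer cells of a type and less RNA per cell cannot be told apart in these bulk libraries. The striatal sum ran from 179 to 611 CPM in controls (median 391) and from 386 to 482 CPM after nPM (median 420). Its genes were fitted higher in 12 of 12 cases, 4 of them at an unadjusted edgeR p under 0.05 (Isl1, Six3, Tac1 and Penk). Of all 20857 genes tested, 10197 were fitted higher, 10660 lower, and 5.67% lay under 0.05. The genes of a list were measured in the same 12 libraries, so their directions are not independent. The hypothalamic and amygdalar sum ran from 15.8 to 25.4 CPM in controls and from 18.4 to 32.0 CPM after nPM. Its largest parts were Baiap3 (mean 11.5 CPM) and Trh (mean 6.47 CPM). Otp, Avp, Oxt, Pmch and Agrp, also on the list, had at most 5 counts in any cortex library, so the sum rested on few listed genes. Of its 17 genes 7 could be tested, of which 3 were higher (Baiap3, Irs4 and Lhx8) and 1 lower (Trh) at an unadjusted p under 0.05, and Nkx2-4, Hmx2 and Hmx3 had no count in any cortex library. Of 10 choroid plexus markers 9 were fitted higher after nPM (median log2 difference 0.31, against 0.23 for the striatal list), and of 5 endothelial markers 5, with none of either list at an unadjusted p under 0.05. Male control replicate 1 had the lowest striatal (179 CPM), choroid plexus (11.7 CPM) and endothelial (161 CPM) sums of the 12 libraries, and the lowest Gad1 (82.9 CPM) and Gad2 (65.4 CPM).

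The GABAergic lineage sum ran from 408 to 508 CPM in controls and from 427 to 518 CPM after nPM, with 15 of 18 genes fitted higher and 1, Nr2f2, at an unadjusted p under 0.05. The glutamatergic sum ran from 1013 to 1202 CPM in controls and from 942 to 1072 CPM after nPM. Of its genes 9 of 10 were fitted lower, 2 of them, Fezf2 included, at an unadjusted edgeR p under 0.05. Over all 20857 genes tested, 10197 were fitted higher, 10660 lower, and 5.67% lay under 0.05. With the mean marker level as a covariate, the nPM difference of Gad1 was 0.18 for the GABAergic lineage, 0.18 for the striatum and 0.13 for the hypothalamus and amygdala. That of Gad2 was 0.12, 0.08 and 0.02, that of Slc32a1 0.02, -0.00 and -0.10, and that of Gabra2 0.15, 0.15 and 0.12. The GABAergic, striatal and hypothalamic and amygdalar lists had 15, 12 and 5 genes fitted higher after nPM and 3, 0 and 2 lower. They were chosen with earlier results of these data known. A covariate that itself differs with nPM can take up part of the nPM difference, so the smaller values assign it to no source. The part of these markers in the result was not tested.

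**Figure D4:**
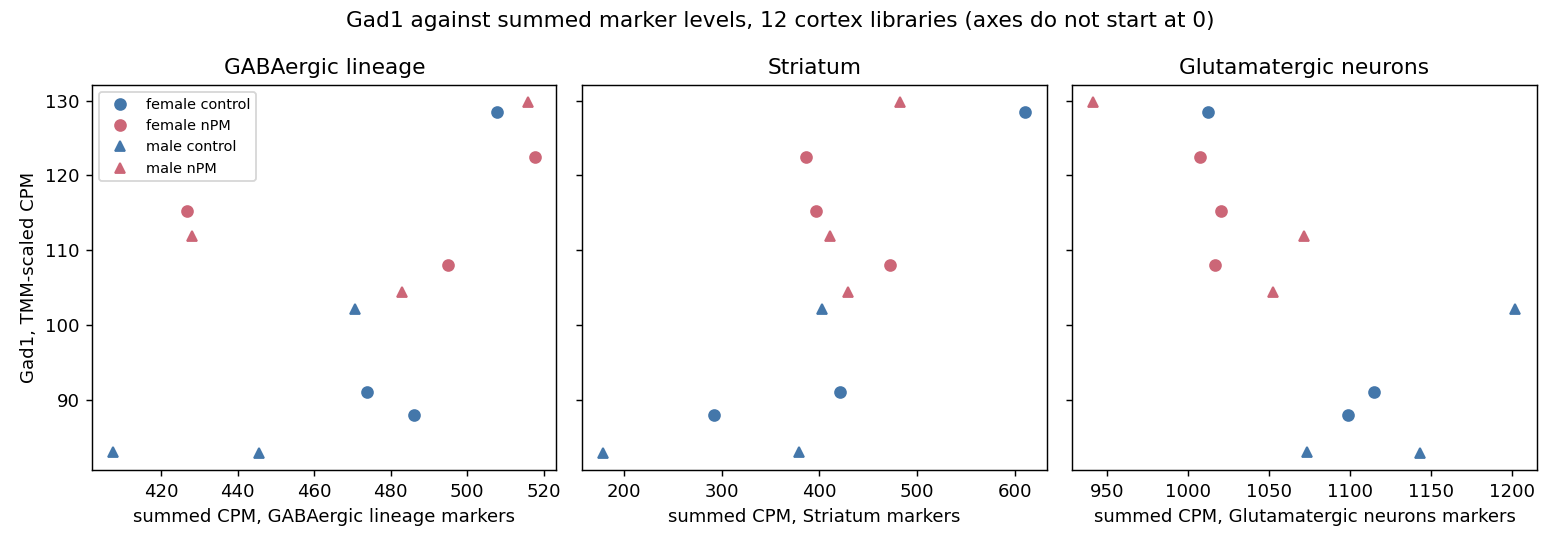
Gad1 level (TMM-scaled CPM) in each of 12 cortex libraries against the summed CPM of 3 marker lists (axes do not start at 0, circles female, triangles male, blue control, red nPM). The control library with the highest Gad1 level, 128 CPM, also has the highest striatal sum, 611 CPM.

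In blood the genes were near the limit of detection. The comparison used 11 libraries (5 control, 6 nPM) without female control replicate 2. The study's methods leave out 1 blood library for its count distribution without naming it, and female control replicate 2 was taken here to be that library. Gad1 and Slc12a2 had counts in all 11, and the other 6 genes had 0 in at least 4 of them and were not tested. Gad1 had 12 to 32 counts per control library and 26 to 49 after nPM. On the TMM scale it ran from 0.683 to 1.43 CPM in controls (median 0.896) and from 1.31 to 2.31 CPM after nPM (median 1.59). Only the highest control, male replicate 1, overlapped the nPM range.

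The Gad1 log2 difference in blood was 0.79 (SE 0.28, 95% interval 0.21 to 1.37, unadjusted p = 0.0105, edgeR adjusted p = 1.000). Neither tested gene passed 0.005, which 0.17% of all 9977 blood genes did, and 1 of 2 lay under 0.05, which 3.11% were. Limma voom and DESeq2 also gave 0 at 0.005 and 1 at 0.05, with their shares of all blood genes not given here. A two-sided exact permutation test of the CPM gave p = 0.0130 (n = 5 and 6). With each library left out the difference was 0.61 to 0.93. Slc12a2 ran from 0.778 to 2.42 CPM in controls and from 1.39 to 3.00 CPM after nPM, a log2 difference of 0.31 (SE 0.29, unadjusted p = 0.301, edgeR adjusted p = 1.000).

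Of the 11 blood libraries compared, male nPM replicate 2 had the highest count of all 6 untested genes. It had 86 counts of Slc12a5, where the next library had 8, and 19 of Gad2, where the next had 2. It had 17 of Slc32a1 (next 3), 18 of Gabra2 (next 8), 23 of Gabra3 (next 4) and 9 of Gabra5 (next 7). Among the 11 it also had the highest sum of neuronal markers, 36.6 CPM against at most 9.19 CPM, and female control replicate 2, not compared, had 76.3 CPM. It also had the highest Gad1 count of the 11, 49 against a next of 47 in female nPM replicate 3, which had no count of the 6 untested genes. The part of neuronal reads in the Gad1 difference was not tested.

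**Figure D5:**
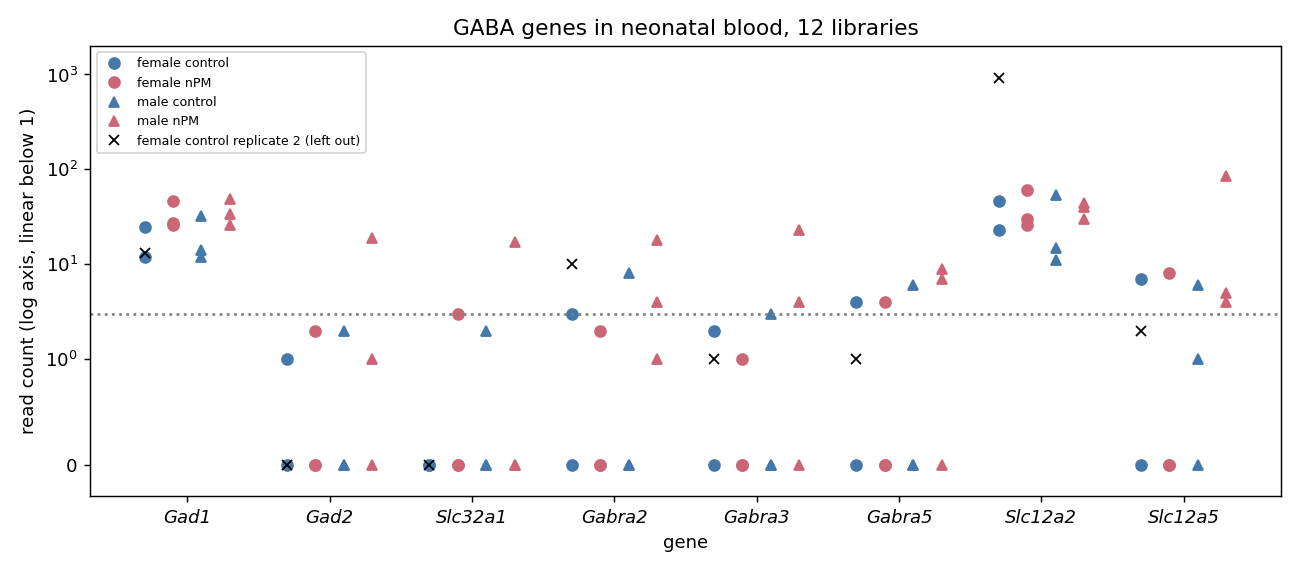
Read counts of the 8 genes in 12 blood libraries (log axis, linear below 1, dotted line at 3 counts, circles female, triangles male, blue control, red nPM, cross for the library left out). Gad1 and Slc12a2 have counts in every library, and the cross for Slc12a2 stands at 914 counts.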

How the data were processed

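Total RNA libraries were made with the RiboZero Gold kit, which removes ribosomal RNA. The authors trimmed the reads (Trimmomatic), aligned them to mm10 (HISAT2) and assigned them to 48709 genes of Gencode M11 (featureCounts 1.5.0-p3). They deposited whole-number counts per gene with no normalization, in 24 libraries, with a gene table whose other value used here is the gene length in bases. Strandedness is not stated. The authors' mean RPKM columns were not used.

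Groups came from the sample labels. No pair of libraries were copies. A gene entered a fit if all its libraries had at least 1 count. Counts were scaled by TMM and compared by edgeR 4.0.16 (R 4.3.3), quasi-likelihood F test, two-sided, with exposure, sex and RIN, and an exposure-by-sex term for the interaction. P-values were adjusted by Benjamini and Hochberg over all genes of the fit. Alternatives were limma voom 3.58.1, DESeq2 1.42.0, RLE factors, other filters, no RIN, lane, marker covariates and leaving out libraries. The scripts were tested on simulated data. Results that need certain genes are not reported here.

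The 8 genes, the list of 53 other GABA genes and the marker lists were chosen with earlier results of these data known. Other GABA genes named are those past 0.005 in a contrast and the 2 largest differences of each sign at a mean of at least 5 CPM.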

Additional observations from a re-analysis of the deposited data

Results flagged for a closer look

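In the blood library left out of the comparison, female control replicate 2, Slc12a2 stood at 43.2 CPM (914 counts), where the highest of the other 11 blood libraries had 3.00 CPM, and so signal appeared in a library outside the comparisons. The same library had 81764 counts of Krt1 and 66934 of Krt10, both keratin genes, against at most 67 and 62 in any other blood library. Their part in the Slc12a2 level was not tested. Of 24 groups of 4 to 10 values given a gap test for a single distant library, none was past its limit, where chance gives about 1 in 20.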

How the results depend on the processing

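Other settings were tried for the 8 genes and the 48 other GABA genes. Without the RIN term the genes past 0.005 were 1 of 8 for nPM and 0 of 8 for sex in cortex, where the full fit gave 2 and 1. With genes counted in any library kept, they were 3 and 3, Gad2 joining for nPM and Gad2 and Slc32a1 for sex, and 2 of the 8 passed an edgeR adjusted p of 0.05 in each contrast. The share of all genes that passed with that filter is not given here, so nothing is read from those counts. With marker covariates the nPM count was 1 for the GABAergic lineage, 1 for the striatum and 0 for the hypothalamus and amygdala. Each library left out in turn gave counts of 1 to 3 for nPM, 0 to 2 for sex, and 0 to 2 for the other GABA genes. Limma voom, DESeq2, RLE factors, the lane term, filterByExpr and the filter of 10 counts left the counts of the 8 genes at 2 for nPM, 1 for sex and 0 for the interaction. Shares of all genes are given for the main edgeR fits only. The 8 genes were selected on the nPM contrast, so nothing is read from their counts there.

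The interaction ran from -0.0857 to 0.105 for Gad1, from -0.123 to 0.281 for Gad2, from -0.232 to 0.0358 for Slc32a1 and from -0.0915 to 0.0282 for Gabra3 with 1 library left out, and that of Slc32a1 was 0.0587 without RIN. The sex difference of the log2 ratio of Slc12a5 to Slc12a2 ran from -0.0156 to 0.0781 and that of Gad1 to Gad2 from -0.00181 to 0.0565. In nPM libraries alone the ratios differed by -0.110 and -0.0169, and in control libraries alone by 0.202 and 0.0580. With all 12 blood libraries the nPM difference of Slc12a2 was -0.173. The cause of these changes was not tested.

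No paired analysis was possible because the labels carry no replicate numbers shared between groups. Exposure was given to dams, and the fits hold no term for dam or litter and treat each neonate as independent. The methods draw the 3 neonates of a sex and exposure from different litters. Whether a male and a female of the same exposure were littermates is not stated. With 3 libraries per sex and exposure, differences of the size seen here lie close to the spread between libraries, and blood counts of 12 to 49 limit the precision of Gad1.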
